A study of Mus musculus with 4 samples.

Results

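The genes considered here encode the proteins of the cytosolic ribosome. They were chosen by name from the array annotation: Rpl or Rps followed by a number, with an optional a, x or l and a further digit, together with Rplp0, Rplp1, Rplp2 and Rpsa. The array carries 83 such names on 192 probes, and 82 of them were tested because their probe was well above background on all arrays in the treated or in the control channel. Of these, 49 belong to the large (60S) and 33 to the small (40S) subunit, and they stand among 22455 genes tested of 29924 gene names on the array. The gene left out is Rpl3l, a paralogue of Rpl3 known from heart and skeletal muscle, which was not well above background.

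Expression was measured on 4 Agilent 2-colour arrays. Each of them compared 1 pool of ureters treated with IWP-2 directly with 1 pool of control ureters, in 2 dyes. Both pools came from wild-type embryos of the outbred NMRI strain at E12.5, cultured as explants without serum for 18 h, with IWP-2 at 10 µM or with its solvent DMSO as the control. Porcupine, the target of IWP-2, attaches the lipid without which WNT ligands do not leave the cell. The block is thus not confined to 1 cell type of the explant. A pool combines ureters of many embryos of undetermined sex and holds mesenchyme, epithelium and all other cells of the ureter. The treated RNA carried the red dye (AlexaFluor647) on arrays 1 and 3 and the green dye (AlexaFluor555) on arrays 2 and 4. The authors' methods give 4 as the number for this stage, while their results text and a figure legend speak of 2. Whether the 4 arrays hold 4 independent pairs of pools can thus not be told. Here they count as 4 replicates of 1 comparison, and their number limits the precision of each value. If arrays shared pools, the SDs would understate the spread between pools and the p-values would be too small.

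Values are log2 ratios of treated over control after correction of the background and normalisation within the array, so that 0 means equal signal and values below 0 mean less signal with IWP-2. A gene was called when its p-value in limma, a linear model fitted to all genes at once with a term for the dye and adjusted by the Benjamini-Hochberg method over all genes, was below 0.05. In bulk tissue, fewer cells of a type and less RNA per cell cannot be told apart. The median raw intensity of an array was 385.3 to 693.8 in the treated channel and 368.4 to 711.2 in the control channel, and no gene spot was saturated. As a check of the treatment, all 6 WNT target genes examined (Axin2, Lef1, Nkd1, Apcdd1, Tcf7 and Sp5) were called lower, with a median log2 ratio of −1.58. All 7 epithelial and all 6 ureteric mesenchyme markers examined were detected in the explants.

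A cytosolic ribosome joins a large and a small subunit, each built from ribosomal RNA and one copy of most of its proteins, so that cells make these proteins in matched amounts. Their mRNAs are among the most abundant of growing cells. Most begin with a C followed by a run of further pyrimidines, the terminal oligopyrimidine (TOP) tract, through which their translation follows nutrient and growth factor signals by way of mTOR and LARP1, with little need for a change in mRNA level. Assembly takes place in the nucleolus and needs a large set of factors that do not stay in the ribosome. Transcription of these assembly factors is a known function of MYC, itself a WNT target in many epithelia.

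After the normalisation within the array, the mRNAs of the cytosolic ribosomal proteins were nearly level between treated and control ureters. That step (loess) centres genes of like brightness near 0. A change shared by the members, which are among the brightest genes, can be reduced by it. With the arrays centred on their median instead, the median of the members was −0.099 and that of all genes −0.011. With loess, Rpl22l1 was the 1 member that fell and Rpl10 the 1 member that rose. Together they make 2.44% of the 82 members, where 33.1% of all genes tested were called, 15% lower and 18.1% higher. At an unadjusted p below 0.05 there were 6 members (7.3%), against 44.0% of all genes. The median of the members was −0.0085 and that of all genes 0.0010. The median size of a change, without its sign, was 0.042 for the members and 0.096 for all genes. No member reached 1.5-fold, and the mean of 75 of the 82 members lay within 0.1 of 0 on the log2 scale. The 95% intervals of 76 members included 0. Among the 80 members with a mean processed signal over 100, the outermost bounds of an interval were −0.25 (Rpl22l1) and 0.27 (Rpl10), which corresponds to −16.2% and 20.5%.

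**Figure D1:**
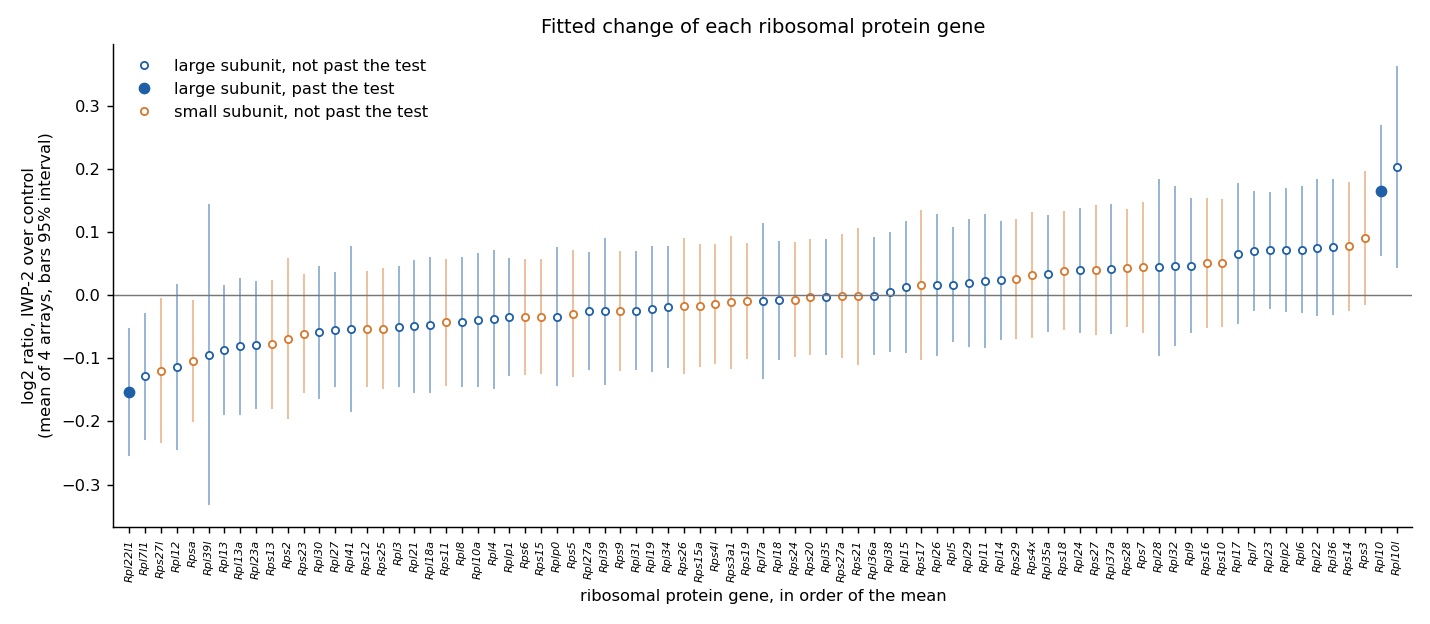
Fitted log2 ratio of treated over control (y axis) for 81 ribosomal protein genes, ordered by their mean on the x axis. Points are means of 4 arrays, bars their 95% intervals from the fit, blue marks the large and orange the small subunit, and filled points passed the test. The means cross 0 within the ranking, Rpl22l1 lies at the lower end with −0.15 and Rpl10 near the upper end with 0.17.

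Rpl22l1 encodes a paralogue of Rpl22, a large subunit protein that binds RNA and is not needed for protein synthesis as such. Its log2 ratio was −0.17, −0.064, −0.19 and −0.20 on arrays 1 to 4. All 4 arrays were below 0, in both dye orders. The mean of −0.15 (SD 0.061, n = 4) had an adjusted p of 0.0336 in limma and corresponds to a change of −10.1% with a 95% interval from −16.2% to −3.6%. The call is close to the threshold: it was kept without array 2, and without array 1, 3 or 4 the adjusted p was 0.0911, 0.114 and 0.158. Rpl22l1 is covered by 1 probe.

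Rpl10 encodes a large subunit protein that joins the particle late, in the cytoplasm, and its gene lies on the X chromosome. Its log2 ratio was 0.40 and 0.52 on arrays 1 and 3 and −0.18 and −0.084 on arrays 2 and 4. The ratio was thus above 0 on both arrays with red treated RNA and below 0 on both arrays with green treated RNA. The mean of 0.17 (SD 0.35, n = 4) was called in limma with the dye term (adjusted p 0.0286) and not without it (0.363). Without array 3 or array 4 the call was also lost, with adjusted p-values of 0.128 and 0.116. The 3 probes of Rpl10 gave nearly the same mean, from 0.16 to 0.17.

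The probes behind both calls are shown here because each call rests on the stretch of mRNA they cover. They are given 5′ to 3′ in the sense of the transcript with positions on mm9 (the build of the array annotation).
Rpl22l1, chr3:28706237-28706296, plus strand: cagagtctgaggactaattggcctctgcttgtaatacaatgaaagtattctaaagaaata
Rpl10, chrX:71518414-71518473, plus strand: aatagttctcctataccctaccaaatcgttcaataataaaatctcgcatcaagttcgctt

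For these genes the arrays differed more by dye order than by treatment. The median over the 82 members was 0.13 and 0.17 on arrays 1 and 3 and −0.15 and −0.16 on arrays 2 and 4, a mean of −0.0046 with an SD of 0.18 over 4 arrays. The medians of all genes stayed between −0.0025 and 0.0093. Of the 82 members, 61 lay above 0 on both arrays with red treated RNA and below 0 on both arrays with green treated RNA, and none showed the opposite pattern. Only 4 members (4.88%) kept 1 sign on all 4 arrays, against 43.4% of all genes. These 4 were Rpl22l1, Rpl7l1, Rps27l and Rpl10l, all of them paralogues of another member. All 4 were also dimmer than most members, and their brightness was not separated from their being paralogues. Rpl10l passed the filter on dim probes only through its treated channels, so its positive sign is not read as a result.

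**Figure D2:**
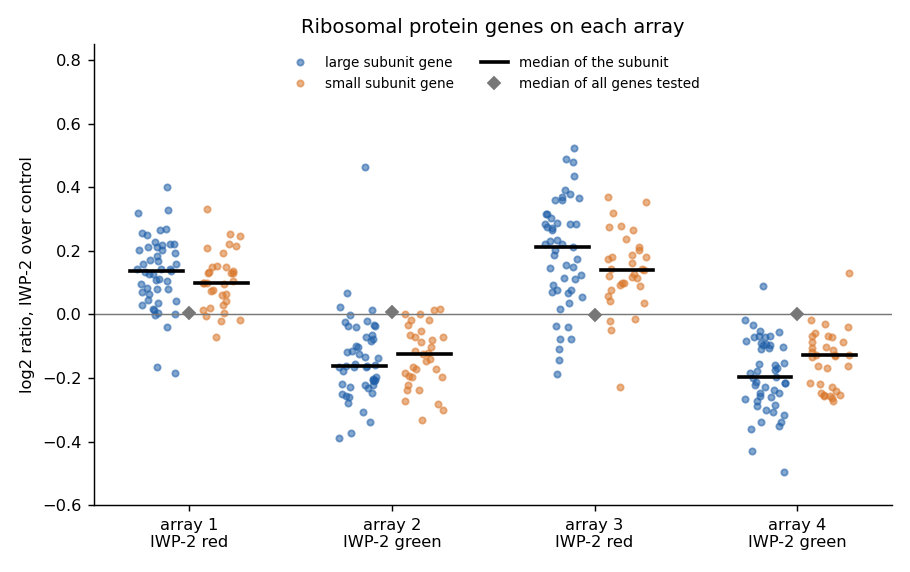
Log2 ratio of treated over control (y axis) of each ribosomal protein gene on each of the 4 arrays (x axis, with the dye of the treated RNA). Blue points are large and orange points small subunit genes, black bars the subunit medians and grey diamonds the median of all genes tested. The subunit medians alternate between 0.10 to 0.21 on arrays 1 and 3 and −0.20 to −0.12 on arrays 2 and 4.

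The dye term of the fit, which is 0.5 times the difference between the red and the green dye orders, was above 0 in 77 of the 82 members with a median of 0.14. It had an unadjusted p below 0.05 in 70.7% of the members and in 18.9% of all genes. The probes of these genes are among the brightest of the array: 59 of the 200 brightest probes belong to the 83 names. A further 279 genes outside the list were brighter than the 25th percentile of the members. Their dye term had a median of 0.13 and an unadjusted p below 0.05 in 61.6%, and their median log2 ratios alternated in the same way (0.13, −0.12, 0.16 and −0.13). Across the 82 members the dye term and the log2 signal had a Pearson r of 0.418. The members share the 4 hybridisations, so that the value describes these arrays and carries no p. Without the loess step the alternation was wider, from 0.73 and 0.75 on arrays 1 and 3 to −0.87 and −1.03 on arrays 2 and 4. The balanced dye order removes this alternation from the means, and it remains in the SD of each member.

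Of the 279 genes of like brightness 6 were called lower (2.15%) and 29 higher (10.4%), with a median size of change of 0.048. Calls were thus fewer among bright genes outside the list than among all genes, too. The difference between the members and these genes was not tested.

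Large and small subunit genes gave nearly equal medians. The median of the 49 large subunit genes was −0.0077 and that of the 33 small subunit genes −0.0097. By array the large subunit minus the small subunit came to 0.037, −0.037, 0.073 and −0.069. The sign followed the dye order, and the mean difference was 0.0012 (SD 0.066 over the 4 arrays). That SD holds the alternation by dye order, which cancels in the mean, and is no yardstick for it. In the large subunit 1 gene fell and 1 rose, and in the small subunit no gene was called, with 2 genes at an unadjusted p below 0.05 in limma. The alternation by dye was seen in 38 of 49 large and 23 of 33 small subunit genes.

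Within the subunits, the ends of the ranking were held by few genes. Below Rpl22l1 in size of the fall followed Rpl7l1 with −0.13, Rps27l with −0.12, Rpl12 with −0.11 and Rpsa with −0.10. Rpl12 encodes a protein at the base of the stalk, and Rpsa a small subunit protein also known as the laminin receptor precursor. Rpl12 gave 0.030, −0.085, −0.040 and −0.36 on arrays 1 to 4, with array 4 the lowest (adjusted p 0.160 in limma). Without array 4 its mean was −0.045 (adjusted p 0.620), and without array 2 it was −0.18 (0.0475). Rpsa gave −0.021, −0.20, 0.058 and −0.26 (adjusted p 0.0926). Neither was called, and in both genes the 2 arrays with green treated RNA were the lower ones.

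At the other end stood Rpl10l with 0.20, a dim gene that passed the filter only through its treated channels and whose place is therefore uncertain, then Rpl10 with 0.17, Rps3 with 0.091, Rps14 with 0.078 and Rpl36 with 0.077. Rps3 and Rps14 encode proteins near the path of the mRNA through the small subunit. Rps3 gave 0.10, 0.018, 0.26 and −0.018 (adjusted p 0.166 in limma), Rps14 0.21, −0.12, 0.35 and −0.13 (0.212) and Rpl36 0.21, −0.10, 0.37 and −0.17 (0.237). In all 3 genes the arrays with red treated RNA were above those with green treated RNA, as in most members.

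The proteins of the P stalk, which recruit the elongation factors to the large subunit, did not pass the test. Rplp0 had a mean of −0.034, Rplp1 of −0.035 and Rplp2 of 0.072, each with an SD between 0.27 and 0.35. On the 4 arrays Rplp0 gave 0.13, −0.28, 0.32 and −0.30, Rplp1 0.26, −0.37, 0.28 and −0.31, and Rplp2 0.25, −0.15, 0.36 and −0.17. The 3 genes followed the dye order on every array.

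Rpl5 and Rpl11 form, with the 5S RNA, the particle that also binds MDM2 when ribosome assembly is disturbed. Rpl5 gave 0.080, −0.036, 0.094 and −0.072 with a mean of 0.017, and Rpl11 0.20, −0.26, 0.36 and −0.21 with a mean of 0.023. Both means were smaller than the SD between arrays (0.083 and 0.31), which holds the alternation by dye order. Neither gene was called in limma with the dye term (adjusted p 0.769 and 0.726).

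Further groups of members were described by their counts. The 7 proteins around the exit of the peptide tunnel ranged from −0.079 (Rpl23a) to 0.066 (Rpl17) with a median of −0.022, the 8 proteins along the entry and exit of the mRNA from −0.10 (Rpsa) to 0.091 (Rps3) with a median of −0.021, and none of either group was called. Of the genes whose human counterparts are mutated in Diamond-Blackfan anaemia, a failure of red cell production, 11 were examined as a list that is not complete. These 11 lay between −0.017 (Rps26) and 0.051 (Rps10) with a median of 0.017, and none was called.

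Some ribosomal protein genes have a paralogue named with an added l. Of the 7 such names, 6 were tested, and their median was −0.11. A mean below 0 was seen in 5 of the 6, in 48 of the 82 members and in 11148 of the 22455 genes tested. Of the 5 paralogues, Rpl39l has a dim probe (signal 19.9) and Rps4l lay at −0.014. The medians of the 6 by array were −0.00040, −0.041, −0.11 and −0.13. The alternation by dye order was not seen in these medians. The mean processed signal of the 6 was at most 16015, below that of most members, and across the members the dye term rose with the signal. Whether brightness sets these paralogues apart was not tested. With 1 called gene of 6 (16.7%) the share was below the 33.1% of all genes.

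**Figure D3:**
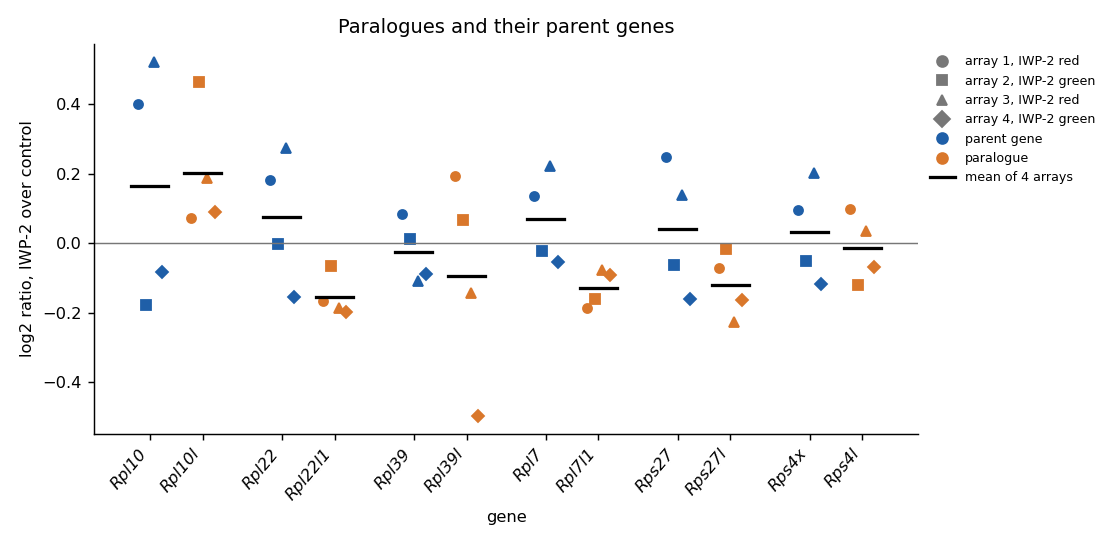
Log2 ratio of treated over control (y axis) for 6 paralogues (orange) and their parent genes (blue), with 1 symbol for each array and a black bar at the mean of 4 arrays. Rpl22l1, Rpl7l1 and Rps27l lie below 0 on all 4 arrays, while the arrays of Rpl22, Rpl7 and Rps27 spread to both sides of 0.

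Rpl7l1 encodes a relative of Rpl7 found in the nucleolus. It gave −0.18, −0.16, −0.076 and −0.092, a mean of −0.13 (SD 0.053, n = 4) with an adjusted p of 0.0571 in limma, just outside the threshold. Its parent Rpl7 gave 0.14, −0.021, 0.22 and −0.055 with a mean of 0.071. The paralogue was below its parent on all 4 arrays, by −0.32, −0.14, −0.30 and −0.037.

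Rps27l, a relative of Rps27 known as a p53 target, gave −0.072, −0.017, −0.23 and −0.16, a mean of −0.12 (SD 0.094, n = 4; adjusted p 0.103 in limma). Its parent Rps27 gave 0.25, −0.063, 0.14 and −0.16 with a mean of 0.040. The paralogue minus the parent came to −0.32, 0.046, −0.37 and −0.00060, so that only the arrays with red treated RNA set them apart. The file places the probe used for Rps27 on chromosome 9 and RefSeq places the gene on chromosome 3. The same holds for Rps29 (probe on chromosome 2, gene on chromosome 12). Values of these genes are uncertain where near-identical copies share the probe's sequence.

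Rpl22, the parent of Rpl22l1, gave 0.18, −0.0010, 0.27 and −0.15 with a mean of 0.076 (adjusted p 0.247 in limma). Rpl22l1 minus Rpl22 was −0.35, −0.063, −0.46 and −0.044. The paralogue was the lower of the pair on all 4 arrays, with a mean difference of −0.23 and an SD of 0.21. With the probes used, the gap of Rpl22l1, as of Rpl7l1, was wider on both arrays with red treated RNA, where the parent was highest. This depends on the probe of the parent. The other, dimmer probe of Rpl22 gave −0.16, 0.0665, 0.0062 and −0.12 with a mean of −0.051. The dimmest of the 4 probes of Rpl7 gave −0.049, 0.12, −0.034 and 0.038 with a mean of 0.019, and was not highest on the arrays with red treated RNA. The differences within these pairs were not tested against chance, since the pairs were chosen with results of these arrays known.

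The remaining 3 pairs showed no common direction. Rpl10l, a retrogene of the X-linked Rpl10 known from male germ cells, gave 0.071, 0.46, 0.19 and 0.089 with a mean of 0.20 (adjusted p 0.0589 in limma). Its probe is dim, with a mean processed signal of 10.2, and it was well above background on all 4 arrays in the treated channel and on 3 in the control channel. Its mean was 0.11 without array 2 (adjusted p 0.213) and 0.30 without array 4 (0.00730), and ranged from 0.034 to 0.58 over the alternatives (0.00730 to 0.466), so that its size is not settled. Rpl39l, likewise known from the testis, gave 0.19, 0.067, −0.14 and −0.50 with a mean of −0.094 at a signal of 19.9. Rpl39 had a mean of −0.025. Rps4l, which RefSeq lists as a transcribed pseudogene, had a mean of −0.014 and Rps4x, its X-linked relative, of 0.032. None of these 5 genes was called.

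Most members are covered by several probes, and these gave close values. In 60 genes with more than 1 probe past the filter, 84 of the further probes (78.5%) had the sign of the probe used. The median gap between the highest and lowest probe of a gene was 0.030.

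The dim probe of Rps15a, a small subunit protein, gave −0.49, −0.43, −0.42 and −0.40 with a mean of −0.44 (SD 0.040, n = 4) and an adjusted p of 0.000638 in limma. Its processed signals ran from 84.2 to 109.6 in the treated and from 119 to 149 in the control channels. All treated channels were below all control channels. The bright probe used for Rps15a had a mean of −0.017. The dim probe lies 4322 bases downstream of the one used, and is printed because its value parts from that of the other probes of the gene (mm9, 5′ to 3′ in the sense of the transcript).
Rps15a, dim probe, chr7:125248322-125248381, minus strand: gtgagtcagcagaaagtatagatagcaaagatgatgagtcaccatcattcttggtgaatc
Which transcripts the dim probe binds cannot be read from the arrays.

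Other members had dim probes below 0 as well. Of the 189 member probes past the filter, 11 in 10 genes had a mean processed signal under 500. Of these, 10 had a mean below 0, and the exception was Rpl10l. The share below 0 among all equally dim probes of the array was not examined, so this count is not read as a trait of the members. Signals were as low as 10.2 (Rpl10l), 16.1 (Rpsa), 19.9 (Rpl39l) and 24.7 (Rpl6). The 178 brighter probes lay between −0.19 and 0.17. With the dimmest probe of each gene in place of the brightest, 3498 of 22455 genes were called lower and 3538 higher (31.3%). Among the members 7 were called lower and 1 higher in this setting. Beside Rpl22l1 and Rps15a they included Rps27a (−0.29, from a probe 2025 bases upstream of the one used), Rpl21 (−0.26, 2227 bases downstream), Rpl30 (−0.19, 428 bases upstream) and Rpsa (−0.16, 698 bases downstream), with adjusted p-values in limma of 0.00467, 0.00769, 0.0130 and 0.0300. The brightest probe of these 4 genes gave −0.0013, −0.049, −0.059 and −0.10. Rps15a, Rps27a, Rpl21 and Rpl30 were singled out after their values were seen. A change at such a probe concerns the sequence it covers, and its value cannot be set against the level of the main mRNA.

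All 83 names have a RefSeq symbol, 82 as protein-coding genes and 1 as a transcribed pseudogene. They are spread over 19 chromosomes, with 14 on chromosome 7, 8 on chromosome 17, 7 on chromosome 11 and 4 on the X chromosome. For 62 of them RefSeq start windows of GRCm38.p6 were at hand, each from 250 bases before to 50 bases after an annotated start. A run of at least 8 C or T within 25 bases of the start, on the strand of the gene, was present in 33 of the 62 (53.2%) and in 22.3% of all 27025 genes with a window, counting a gene when any of its windows held it. The letters CTTTC in the same stretch, which can lie within such a run, were present in 30.6% and 7.9%.

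The motif CCGGAAG, the core bound by ETS factors such as GABPA, occurred on either strand of the whole window in 40.3% of the members and 9.9% of all genes. CTTTGA, a core of the TCF/LEF site, occurred on either strand in 6.5% (4 genes) and 18.2%. CACGTG, the E-box bound by MYC and MAX, occurred in 9.7% and 8.1%. TATAAA occurred in 1.6% and 2.6%, in a stretch a few bases wider at each end than 20 to 40 bases before the start. These are counts of letters in windows and not binding sites.

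GRCm38.p6 start windows of 15 bases to either side of the annotated start are printed for 4 members to show the pyrimidine run, in capitals, that many of these genes share, in the stalk gene Rplp2, in the parent Rps27 and in the paralogues Rpl22l1 and Rps27l.
Rplp2, chr7:141447636-141447665, plus strand: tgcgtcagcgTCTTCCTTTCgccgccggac
Rps27, chr3:90213634-90213663, minus strand: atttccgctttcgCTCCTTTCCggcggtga
Rpl22l1, chr3:28805493-28805522, plus strand: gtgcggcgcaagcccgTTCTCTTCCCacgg
Rps27l, chr9:66946071-66946100, plus strand: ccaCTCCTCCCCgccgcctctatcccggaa
In Rplp2, Rps27 and Rpl22l1 the run lies at or next to the annotated start. In Rps27l it lies before it. Rpl22l1, the member that fell, and Rplp2, which was not called (mean 0.072), thus both carry such a run. The 4 windows were chosen to show a run, and other named members lack one. In windows of the same width the longest run was 3 bases in Rpl10, the member that rose, and 2 in Rpl7l1.

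Genes of the same machinery outside the naming rule gave the setting of these values. Of 3 further ribosomal protein genes (Fau, Gnb2l1 and Rpl36al) none was called, and they lay between −0.068 and 0.066. Of 16 translation factors and other genes with TOP-type mRNAs 1 fell and none rose (6.25% called, against 33.1% of all genes). It was Hnrnpa1, an RNA-binding protein, with −0.14 (SD 0.22, n = 4; adjusted p 0.0418 in limma). The median of the 16 was −0.0072. The median size of their change was 0.063, against 0.042 for the ribosomal protein genes.

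**Figure D4:**
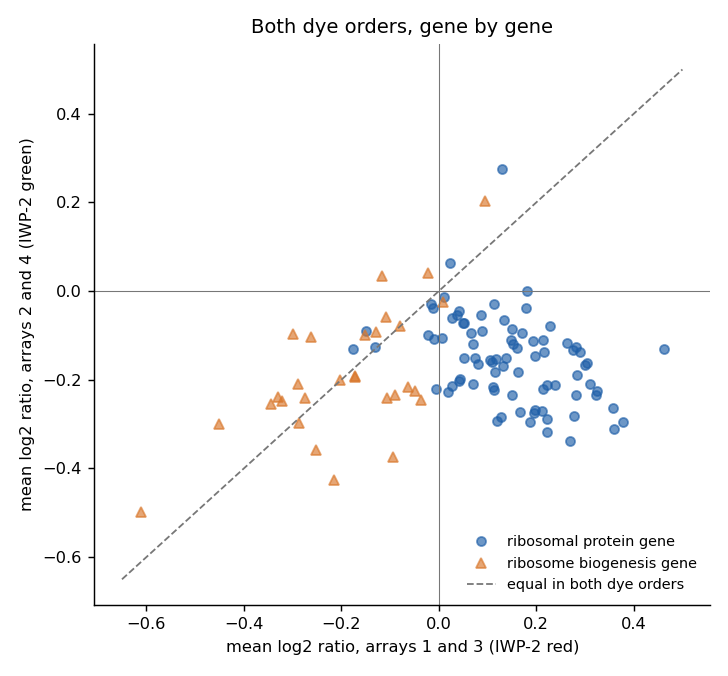
Mean log2 ratio of treated over control of arrays 1 and 3 (x axis, treated RNA red) against that of arrays 2 and 4 (y axis, treated RNA green) for 82 ribosomal protein genes (blue circles) and 29 ribosome biogenesis genes (orange triangles). The dashed line marks equal values in both dye orders. Most ribosomal protein genes lie to the right of 0 and below 0, and most biogenesis genes lie below 0 in both dye orders.

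The genes for ribosome assembly were mostly lower. Of 29 ribosome biogenesis genes 21 fell and none rose (72.4% called, against 33.1% of all genes), with a median of −0.18 and medians of −0.17, −0.22, −0.18 and −0.23 on the 4 arrays. All arrays agreed in sign, in both dye orders, with an SD of 0.029. The largest falls were those of Ddx21, a helicase of the nucleolus (−0.55, adjusted p 0.000907 in limma), Dkc1, the pseudouridine synthase of the box H/ACA particles (−0.38, 0.00176), and its partner Gar1 (−0.32, 0.00217). Nop58, a core protein of the box C/D particles (−0.30, 0.00224), and Tsr1, a factor of the late small subunit precursor (−0.30, 0.00295), followed. On array 1 to 4 Ddx21 gave −0.56, −0.37, −0.66 and −0.63. None of these 21 genes reached 1.5-fold.

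RNA polymerase I, which transcribes the ribosomal RNA precursor, had 3 of 13 genes lower and 2 higher with a median of −0.050. The 38.5% called is close to the 33.1% of all genes. Its subunits Polr1e (−0.27) and Polr1a (−0.23) and the initiation factor Rrn3 (−0.14) fell, while Polr1d (0.22), a subunit shared with RNA polymerase III, and Ubtf (0.16), which binds the promoter of the ribosomal RNA genes, rose. The adjusted p-values in limma ran from 0.00349 for Polr1e to 0.0356 for Rrn3.

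Of the 77 genes for proteins of the mitochondrial ribosome, 8 fell (10.4%) and none rose, where 15% of all genes were lower, and the median was −0.048. The largest falls were Mrps2 (−0.21), Mrpl13 (−0.19), Mrps11 (−0.17), Mrpl36 (−0.16) and Mrpl18 (−0.16). The medians by array were −0.061, −0.019, −0.051 and −0.064, without the alternation by dye order of the cytosolic set.

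In the MYC network 5 of 9 genes fell and none rose (55.6% called, where 15% of all genes were lower and 33.1% called). Mycl gave −0.63, −1.07, −0.69 and −0.74 with a mean of −0.78 (SD 0.20, n = 4; adjusted p 0.000372 in limma). Myc gave −0.33, −0.54, −0.63 and −0.52 with a mean of −0.51 (0.00137), and Mycn −0.19, −0.35, −0.69 and −0.46 with a mean of −0.42 (0.00990). All 3 MYC genes were lower on every array. Mxd3 (−0.40) and Mxd4 (−0.13), which encode partners of MAX that oppose MYC, fell as well, and Max itself had a mean of 0.015.

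Among 14 genes of the mTOR pathway and of TOP mRNA control 1 fell and 2 rose, a share of 21.4% that is below the 33.1% of all genes. Eif4ebp1, an mTOR substrate that holds back cap-dependent translation, fell with −0.24 (adjusted p 0.00748 in limma). Deptor (0.23, 0.00775) and Tsc1 (0.19, 0.0174), both of which restrain mTOR, rose. Larp1, which binds the TOP tract, had a mean of 0.16 (SD 0.18, n = 4) and did not pass the test (adjusted p 0.136).

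**Figure D5:**
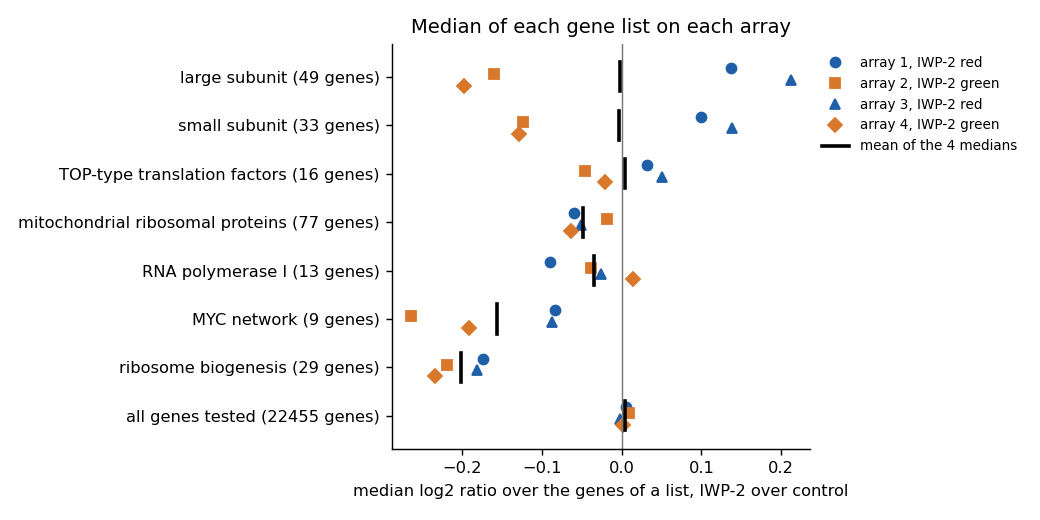
Median log2 ratio of treated over control (x axis) over the genes of each list (y axis, with the number of genes tested) on each of the 4 arrays, with a black bar at the mean of the 4 medians. Blue symbols are arrays with red and orange symbols arrays with green treated RNA. The subunit medians fall to both sides of 0 by dye order, and the 4 medians of ribosome biogenesis lie between −0.23 and −0.17.

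Marker genes of several cell types also changed, and the counts stand against 15% of all genes lower and 18.1% higher. Of 10 proliferation genes 8 were lower (median −0.30, range −0.49 to −0.011), with summed processed signals of 24700 to 31290 in the treated and 28240 to 39410 in the control channels. All 7 smooth muscle markers were lower (median −0.58), with sums of 4827 to 8066 and 7524 to 14060. All 7 epithelial markers were higher (median 0.30, sums of 46390 to 67150 and 40880 to 54040), as were 5 of 8 blood markers (median 0.23, 94800 to 132400 and 71070 to 111700) and 4 of 6 endothelial markers (median 0.19, 13520 to 19280 and 11950 to 16830). Markers of the ureteric mesenchyme went both ways (1 of 6 lower, 1 higher, range −0.74 to 0.80, median 0.017, sums of 90730 to 118100 and 84240 to 116100). So did those of nephron progenitors (1 of 6 lower, 5 higher, −0.96 to 1.14, median 0.22, 12190 to 16070 and 11240 to 14130) and of neural crest (1 of 6 lower, 3 higher, −1.38 to 0.43, median 0.17, 11260 to 17320 and 12510 to 18220). None of the markers of these lists was undetected. The part of these shifts in the values of the ribosomal protein and biogenesis genes was not tested.

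The level of the ribosomal protein genes relative to all others depends on the centring of bright probes. Loess centres probes of like brightness near 0, so that a change shared by bright probes can be reduced by it. With the arrays centred on their median and no loess, the median of the members was −0.099, with 4 members lower and none higher, while the median of all genes moved only to −0.011. Averaged over the arrays, the median without loess was −0.11 for the members and −0.088 for the 279 other bright genes. Which of the centrings is nearer to the level in the tissue was not tested.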

How the data were processed

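Scanner images were read by the authors with Agilent Feature Extraction 10.7.3.1, and the deposited files give red and green intensity values, quality flags and a log10 ratio for each spot, which was used to check the direction. The authors' table of signed fold changes, another score of the same arrays with unstated normalisation, served as an alternative. Raw intensities were corrected with normexp (offset 50) and normalised by loess (span 0.3) in limma 3.58.1 (R 4.3.3). Spots marked as outliers were dropped, the 4 spots of a probe averaged, and the brightest probe past the filter stood for a gene. The filter asked that over 0.5 of the spots be well above background on all arrays of one channel group. The fit held a dye term, and tests were two-sided. The code was tested on simulated data. Members and gene lists were chosen with earlier results of these data known. Named are called members, the 5 lowest and highest, stalk, 5S and paralogue genes with their parents, and up to 5 called genes of each other list. Some items are not reported here. Start windows are from RefSeq GRCm38.p6. Alternatives changed normalisation, filter, probe, dye term, channel model and arrays.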

Additional observations from a re-analysis of the deposited data

How the results depend on the processing

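The median of the ribosomal protein genes (−0.0085) and the difference between the subunits (0.0012) changed sign with the dye order. The median ranged from −0.15 on arrays 2 and 4 alone to 0.14 on arrays 1 and 3 alone, and the difference from −0.053 to 0.055 on the same pairs of arrays. Their SD between arrays holds this alternation and is no measure of stability. Without 1 array the median ranged from −0.062 to 0.047 and the difference from −0.023 to 0.025. The counts of calls moved. Instead of 1 lower and 1 higher member, the fit without the dye term, the processed signals and the 8 channels with no replicate block called 0 lower and 0 higher. Median centring without loess called 4 lower and 0 higher, and 6 lower and 2 higher were called from the authors' series table. No background correction gave 2 higher. A mean processed signal over 100, and centring on genes as bright as the members, an alternative chosen after seeing the data, gave 2 lower each. The mean of all probes gave 3 lower and the dimmest probe 7 lower. Without 1 array the counts ranged from 0 to 2 lower and from 0 to 1 higher. Of all genes, the alternatives called between 17.3% (series table) and 36.8% (mean processed signal over 100). The causes of these shifts were not tested. With the array as a replicate block the 8 channels gave 1 lower and 1 higher member, as with the ratios, and the arrays pair 1 treated with 1 control pool by design. Rpl22l1 was called in 13 of 20 alternatives (adjusted p from 0.0224 to 0.158) and Rpl10 in 12 of 20 (0.0235 to 0.457). Over 22 named genes and 437 values, 414 kept the side of the threshold, and no call changed its direction. Values that changed sign without a call count among the 414, as in Rpl11, which ranged from −0.075 to 0.062. A block for scan time or slide was not run, as the 4 arrays share 1 of each.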
